A study of Mus musculus with 2 samples.

Results

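The genes described here belong to 4 families with chemoreceptors other than the odorant receptors, and are called receptors below although some Ms4a members are known from immune cells instead: 15 trace amine-associated receptors (Taar), 35 bitter taste receptors (Tas2r), 19 Ms4a genes and 7 formyl peptide receptors (Fpr). They are all the protein-coding genes of GENCODE release M21 (GRCm38) whose symbol starts with 1 of these 4 names, 76 of 21544 protein-coding genes. The measurements are 7435 chromatin boundaries, each a 5 kb position across which Hi-C contacts are depleted. The authors called them on in situ Hi-C contacts of 2 biological replicates combined, 28000 and 24400 sorted cells. The cells form a single group, mature olfactory sensory neurons that carry Olfr16, taken from adult MOR23-GFP mice (olfactory epithelium, sexes mixed, strain not specified), untreated and fixed with 1% formaldehyde.

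Each boundary has a class, Weak or Strong, and a score, which is the authors' own value. In the file every Strong boundary scored at least 0.5004 and every Weak one less, and 51.8% of the list was Strong. The list gives no value per replicate and no depth, so no spread between replicates can be shown, and the values below describe 1 pooled list. Exact Clopper-Pearson 95% intervals cover counting error only, and neighbouring genes that share a boundary are not independent. A list of boundaries holds no expression, so the labelled cell type could not be checked against marker genes, and transcription of the receptors was not measured.

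Most Taar proteins are G protein-coupled receptors for volatile amines and are carried by a subset of olfactory sensory neurons; Taar1 is instead known from the brain. Tas2r proteins detect bitter compounds in taste cells. Ms4a proteins span the membrane several times and serve as chemoreceptors in necklace neurons of the olfactory epithelium, while other members, such as Ms4a1 (the B cell antigen CD20) and Ms4a2 (the beta chain of the high-affinity IgE receptor), are known from immune cells. Fpr1 and Fpr2 sense formylated peptides on neutrophils, and the other Fpr genes are known from vomeronasal neurons. All 4 families lie largely in tandem clusters.

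A start, the 5′ end of a gene, was called near if at most 10 kb separated it from the 5 kb of a boundary. Of the 76 receptor starts, 6 met this (7.89%, interval 2.95 to 16.4%), against 12.5% of all protein-coding starts. These were Taar9 at 5.47 kb, Tas2r143 at 4.76 kb, Tas2r135 at 0 kb, Tas2r107 at 4.85 kb, Tas2r106 at 8.89 kb and Ms4a15 at 0 kb. The interval for the receptors includes the share of all genes, but it treats starts that share a boundary as independent and is not a test. Starts just outside the window were those of Tas2r137 at 11.2 kb, Ms4a12 at 12.6 kb, Taar8c at 13.1 kb and Tas2r108 at 13.5 kb. The starts of 2 receptors, Tas2r135 and Ms4a15, lay inside a boundary, against 3.29% of all starts. Strong boundaries lay within 10 kb of 4 receptor starts, against 7.94% of all.

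The side of the background on which the receptors fell depended on the window. Within 25 kb lay 22 receptor starts (28.9%), against 24.8% of all protein-coding starts, and more than 100 kb away lay 39 (51.3%), against 27.1%. The median distance was 108.3 kb for the 76 receptors, with quartiles at 22.3 and 195.1 kb, against 57.8 kb for all protein-coding starts, with quartiles at 25.4 and 105.9 kb. By family the medians were 105.4 kb for Taar, 161.0 kb for Tas2r, 86.1 kb for Ms4a and 74.2 kb for Fpr. The other tandem receptor families had medians of 104.4 kb (1135 Olfr genes), 149.4 kb (206 Vmn1r genes) and 164.1 kb (119 Vmn2r genes). Their shares within 25 kb were 12.2% for Olfr, 10.7% for Vmn1r and 6.72% for Vmn2r genes, below the 28.9% of the 76 receptors. Only 18 different boundaries were nearest to the 76 receptors, so the receptor medians and shares rest on few positions and no test was made of them.

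**Figure D1:**
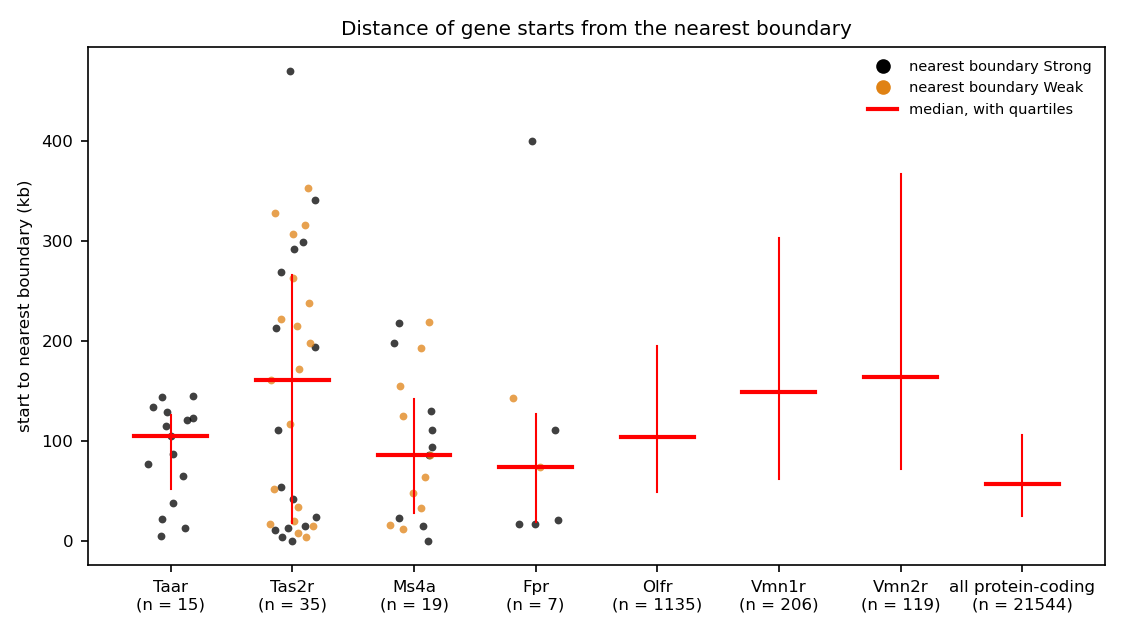
Distance in kb (linear axis) from each gene start to the nearest boundary for the 4 receptor families, 1 point per gene coloured by the class of that boundary, with medians and quartiles in red; for Olfr, Vmn1r, Vmn2r and all protein-coding genes only the median and quartiles are drawn. The medians of the 4 families, between 74.2 and 161.0 kb, lie above the 57.8 kb of all protein-coding genes, and Tas2r118 and Fpr-rs3 are farthest from a boundary in their families.

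The Taar genes sat together in a single interval between boundaries. All 15 lie in one cluster of 189.2 kb on chromosome 10, from Taar1 (chr10:23920356-23921469) to Taar9 (chr10:24108488-24109534), 10 on the plus and 5 on the minus strand. No boundary lay inside the cluster. A Strong boundary (chr10:23810001-23815000, score 0.903) lay 105.4 kb left of Taar1 in a coding exon of Slc18b1, a polyamine transporter gene. The other, also Strong (chr10:24115001-24120000, score 0.649), lay in intergenic sequence 5.47 kb right of Taar9.

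The 300 kb between these boundaries held, beside the Taar genes, the pseudogene Taar7c-ps and the starts of Vnn3 and Vnn1, which encode pantetheinases of the vanin family. Vnn1 is the neighbour on the left, with no boundary between it and Taar1. On the right, Stx7, a syntaxin of endosomal fusion, started 39.8 kb from Taar9 beyond the boundary. The length of this interval was at the 59.9th percentile of the list's intervals.

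Along the cluster the distances followed position. Taar1, known from the brain, lay 105.4 kb from the left boundary, Taar2 123.6 kb and Taar3 134.6 kb. Taar4, a receptor for phenylethylamine, was farthest from any boundary, at 145.5 kb, and Taar5, a receptor for trimethylamine, was next at 144.3 kb, measured to the right boundary. From there the distance to the right boundary shortened through Taar6 (129.4 kb), the Taar7 genes (121.5 to 65.5 kb), Taar8a (38.5 kb), Taar8b (22.7 kb) and Taar8c (13.1 kb). Taar9 closed the order at 5.47 kb. For all 15 genes the nearest boundary was Strong, against 62.9% of all protein-coding starts, and these were only 2 boundaries.

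The letters near the outer boundaries and upstream of Taar9 are shown as the CTCF consensus matches nearest to the 2 boundaries, both outside the Taar interval, and the promoter side of the Taar gene nearest to a boundary. Capitals in the first pair mark an exact match to the 12-letter CTCF consensus, the motif of the zinc finger protein CTCF, which binds at many boundaries. Capitals in the third sequence mark CpG pairs in the 250 bases before the annotated start. The first runs along the plus strand at chr10:23794338-23794397 (intergenic), the second along the minus strand at chr10:24131611-24131670 (an intron of Gm40614), and the third along the minus strand at chr10:24109535-24109784. Genome and promoter sequences are from RefSeq (GRCm38.p6).
Match left of the Taar cluster: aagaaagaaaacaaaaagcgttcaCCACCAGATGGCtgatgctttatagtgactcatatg
Match right of the Taar cluster: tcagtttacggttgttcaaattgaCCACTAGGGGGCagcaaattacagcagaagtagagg
Upstream of Taar9: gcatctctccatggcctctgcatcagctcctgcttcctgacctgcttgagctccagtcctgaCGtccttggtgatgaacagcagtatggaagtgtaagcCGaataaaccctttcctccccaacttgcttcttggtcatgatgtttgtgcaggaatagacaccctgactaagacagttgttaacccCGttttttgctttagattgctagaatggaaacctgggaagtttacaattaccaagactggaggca
The left match lay 15.6 kb outside the left boundary and the right match 11.6 kb outside the right one, so neither fell within 10 kb. The left match was on the plus strand and the right match on the minus strand. No exact match lay inside the cluster. A match describes these letters and does not show a bound site. The stretch before Taar9 held 3 CpG pairs.

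Neighbouring Taar coding sequences ranged from 53.2% to 97.5% identical over their aligned DNA (median 68.7% over 14 pairs). The highest values were in the Taar8 genes, where Taar8a and Taar8b shared 96.6% and Taar8b and Taar8c 97.5%, and in neighbouring Taar7 genes, at 93.1 to 95.3%. In the cluster as a whole 89.8% of 50-base words occurred once in the genome, against 88.9% of words sampled across all chromosomes.

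**Figure D2:**
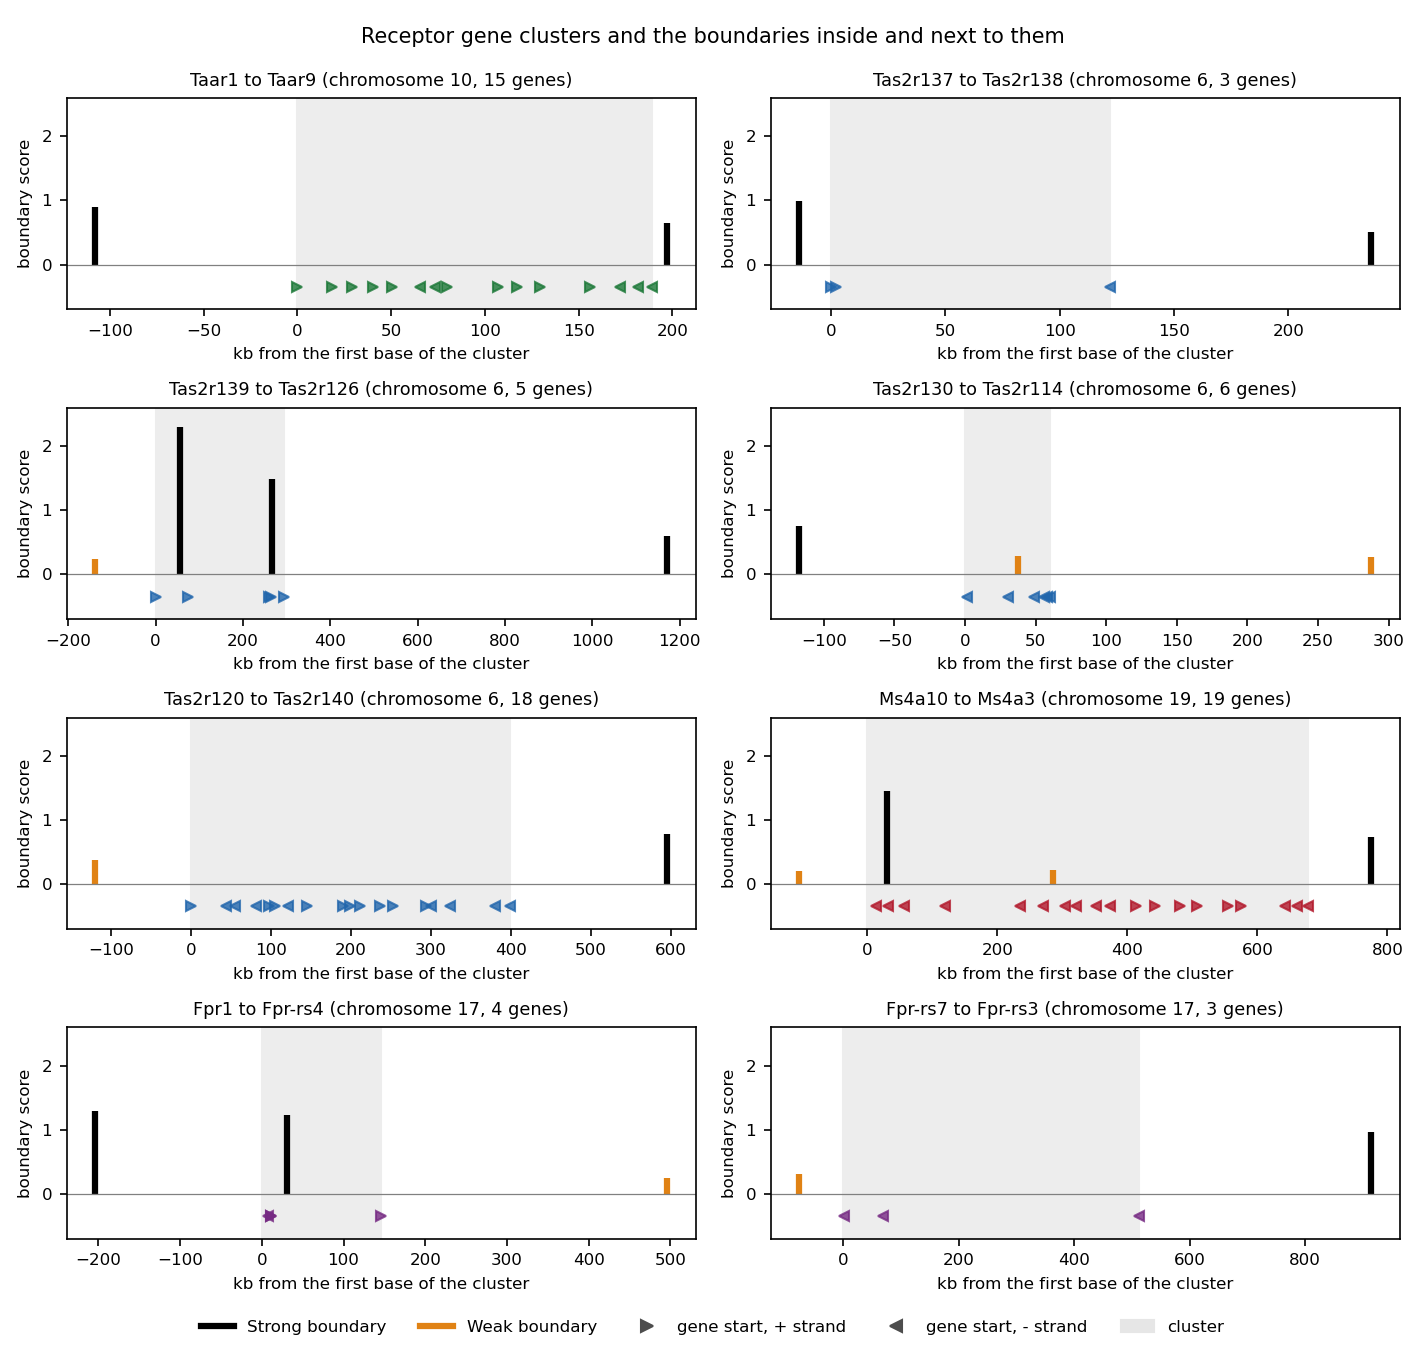
The 8 receptor gene clusters, each drawn from its first base (horizontal axis, kb, a scale of its own in each panel), with gene starts as arrowheads by strand and boundaries as vertical bars whose height is the authors' score. The Taar cluster and the clusters from Tas2r137, Tas2r120 and Fpr-rs7 hold no boundary, whereas the other clusters hold 1 or 2.

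Of the 35 Tas2r genes, 32 lie in 4 clusters on chromosome 6. A cluster of 5 genes was cut by 2 Strong boundaries and a cluster of 6 by 1 Weak boundary, whereas the clusters of 3 and 18 genes held none. Within 10 kb lay 4 of the 35 starts (11.4%, interval 3.20 to 26.7%), against 12.5% of all protein-coding starts, and 11 lay within 25 kb (31.4%), against 24.8% of all. The nearest boundary was Strong for 16 of 35 (45.7%), against 62.9% of all protein-coding starts. Only 10 different boundaries were nearest to these 35 genes, so these shares count some boundaries many times and were not tested. The sequences shown are the CTCF consensus match inside the boundary next to Tas2r137, the match near the boundary left of Tas2r130 and the bases before Tas2r135, whose start lies in a boundary. Capitals mark the match in the first pair; the third stretch holds no CpG pair and so no capitals. They run along the plus strand at chr6:40479863-40479922 (an intron of Ssbp1), chr6:131501654-131501713 (an intron of 5430401F13Rik) and chr6:42405279-42405433.
Match at the Tas2r137 end: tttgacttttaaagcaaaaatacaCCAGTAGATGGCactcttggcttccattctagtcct
Match left of Tas2r130: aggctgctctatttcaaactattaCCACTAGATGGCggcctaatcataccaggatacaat
Upstream of Tas2r135: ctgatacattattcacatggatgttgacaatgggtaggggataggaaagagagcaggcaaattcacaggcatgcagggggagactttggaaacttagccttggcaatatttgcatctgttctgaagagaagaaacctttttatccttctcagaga
The first match lay within the boundary itself and the second 8.31 kb outside its boundary.

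The cluster from Tas2r137 to Tas2r138 (chr6:40491233-40613310, 122.1 kb) lay whole in an interval of 245 kb. Its left boundary (Strong, score 0.986) was in Ssbp1, the gene of a mitochondrial single-strand DNA-binding protein. Tas2r137 started 11.2 kb from it and Tas2r108, a denatonium receptor, 13.5 kb. Tas2r138, the mouse counterpart of the human receptor for phenylthiocarbamide, lay 111.7 kb from the right boundary (Strong, score 0.514), which was in Mgam, the maltase-glucoamylase gene. Among these receptors start 4 other coding genes: Prss37, the odorant receptor genes Olfr461 and Olfr460, and Clec5a, a lectin of myeloid cells, between 39.5 and 105.8 kb from a boundary.

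In the cluster from Tas2r139 to Tas2r126 (chr6:42140936-42435464, 294.5 kb, 5 genes, all on the plus strand) the receptors were spread over 3 intervals. The Strong boundary at chr6:42195001-42200000, in intergenic sequence, had a score of 2.30, above or equal to 98.3% of the list and the highest of the 6 boundaries inside the 8 clusters. Tas2r139 lay 54.1 kb to its left and Tas2r144 15.3 kb to its right. The second boundary, at chr6:42405001-42410000 (Strong, score 1.49), held the start of Tas2r135, with Tas2r143 4.76 kb to its left and Tas2r126 24.5 kb to its right.

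Tas2r144 and Tas2r143 shared their interval of 205 kb with 7 other coding genes: Gstk1, Tmem139, the caspase gene Casp2, the muscle chloride channel gene Clcn1, Fam131b, the zyxin gene Zyx and the ephrin receptor gene Epha1. Their starts were 31.7 to 86.7 kb from a boundary. Tas2r126 lay in an interval of 900 kb with 25 other coding starts, among them many Olfr genes, of which Olfr458 was the nearest, 24.5 kb beyond the end of Tas2r126. On the left, Sva was the neighbour of Tas2r139, 98.1 kb away.

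The 6 genes from Tas2r130 to Tas2r114 (chr6:131629823-131690063, 60.2 kb, all on the minus strand) made the shortest of the clusters. A Weak boundary with a score of 0.280, at chr6:131665001-131670000, lay between Tas2r107 at 4.85 kb and Tas2r106 at 8.89 kb. Tas2r104 (15.7 kb), Tas2r105, the cycloheximide receptor (17.5 kb), and Tas2r114 (20.1 kb) lay on the side of Tas2r106, and Tas2r130 (34.1 kb) on the other. The nearest Strong boundary was 115.9 to 175.1 kb from these 6 starts. No other coding gene started in either interval, of 150 and 245 kb.

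In the largest Tas2r cluster the starts lay 117.0 to 353.0 kb from a boundary. Its 18 genes, from Tas2r120 to Tas2r140 (chr6:132656953-133055816, 398.9 kb), shared an interval of 710 kb, at the 92.6th percentile of the list, with the salivary protein genes Prh1 and Prp2, with A630073D07Rik and Smim10l1, and with 5 Tas2r pseudogenes. The left boundary was Weak (score 0.372), 117.0 kb from Tas2r120, and the right Strong (score 0.785), 194.2 kb from Tas2r140. The farthest genes stood in the middle, Tas2r113 at 353.0 kb and Tas2r125 at 340.4 kb. The neighbours outside the ends, A630073D07Rik 5.43 kb to the left and Smim10l1 49.1 kb to the right, were in the same interval.

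Between this cluster and that of Tas2r130 to Tas2r114 lay 966.9 kb with 3 boundaries, all Weak (scores 0.265 to 0.372), and 6 coding genes, Prb1, Prpmp5, Gm8882, Prh1, Prp2 and A630073D07Rik. Unique 50-base words made up 75.3% of the larger cluster and 77.7% of the smaller one, against 88.9% across all chromosomes, and the part of repeated sequence in these distances was not tested.

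The other 3 Tas2r genes lie alone. Tas2r118 on chromosome 6 was the receptor farthest from a boundary, at 469.9 kb, in an interval of 950 kb that it shared with Rnf133, Rnf148, Cadps2 and Slc13a1. Tas2r134 on chromosome 2 lay 52.5 kb from a Weak boundary (score 0.338). Tas2r119 on chromosome 15 lay 42.7 kb from a Strong boundary (score 0.504). Tas2r134 and Tas2r119 were the sole coding starts in their intervals of 355 and 600 kb.

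The 19 Ms4a genes form a single cluster of 678.6 kb on chromosome 19 (chr19:10962293-11640851), 6 on the plus and 13 on the minus strand, and were divided over 3 intervals. One start of 19 lay within 10 kb (5.26%, interval 0.133 to 26.03%), against 12.5% of all protein-coding starts, and 5 lay within 25 kb (26.3%), against 24.8% of all. Only 3 different boundaries were nearest to these 19 starts. The first boundary inside, at chr19:10990001-10995000 (Strong, score 1.45), covered the start of Ms4a15 and exon sequence of it. Ms4a10 lay 15.3 kb to its left and Ms4a18 23.0 kb to its right. The 201 bases before the outermost annotated start of Ms4a15, on the minus strand at chr19:10993300-10993500, are shown as the promoter side of a gene whose start lies in a Strong boundary, with its 3 CpG pairs in capitals.
Upstream of Ms4a15: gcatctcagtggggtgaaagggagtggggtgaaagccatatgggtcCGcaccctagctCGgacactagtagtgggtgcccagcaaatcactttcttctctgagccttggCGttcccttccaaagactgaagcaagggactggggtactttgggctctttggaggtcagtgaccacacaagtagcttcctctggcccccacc

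The other boundary inside, at chr19:11245001-11250000, was Weak and had a score of 0.216, above or equal to only 4.67% of the list. It overlapped the last bases of Ms4a1, the CD20 gene, whose start lay 16.2 kb to its right, with Ms4a12 12.6 kb to its left. Of the annotated transcripts of Ms4a1, the nearest started 4.68 kb from this boundary. To Strong boundaries alone, Ms4a12 lay 237.4 kb and Ms4a1 271.2 kb.

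On the left, Ms4a10 shared an interval of 130 kb with 6 other coding starts, among them Zp1 of the egg coat, the prostaglandin receptor gene Ptgdr2 and the neighbour Ccdc86. The interval of 250 kb in the middle held Ms4a18, Ms4a8a (86.1 kb from a boundary), Ms4a13 (48.3 kb) and Ms4a12, together with 1700017D01Rik and 1700025F22Rik. The third, of 485 kb, held 13 Ms4a genes with Gm8369 and the oocyte-secreted protein genes Oosp2, Oosp1 and Oosp3. Among these 13 were genes known from immune cells, Ms4a1 and Ms4a2 (111.3 kb), as well as Ms4a7 (86.1 kb), Ms4a6d (130.2 kb), Ms4a4b (193.6 kb) and Ms4a4d (198.2 kb). Ms4a6c, a receptor of necklace neurons, and Ms4a6b were farthest from a boundary, at 219.4 and 218.5 kb. Ms4a3 at the right end lay 94.2 kb from a Strong boundary with a score of 0.732, and its neighbour Oosp2 lay on the same side of it.

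The 7 Fpr genes form 2 clusters on chromosome 17, both beside vomeronasal receptor genes. No start lay within 10 kb of a boundary (0 of 7, which allows a share of up to 41.0%), against 12.5% of all protein-coding starts. Within 25 kb lay 3 of 7 (42.9%) by GENCODE starts, against 24.8% of all, and 2 of 7 by RefSeq starts, which place Fpr3 farther away. All of these starts had the same nearest boundary, the Strong one described next. The cluster from Fpr1 to Fpr-rs4 (chr17:17876471-18022704, 146.2 kb) held a Strong boundary with a score of 1.23 at chr17:17905001-17910000. Fpr1 (21.1 kb) and Fpr2 (17.2 kb), the neutrophil receptors, lay to its left, and Fpr-rs4, a vomeronasal receptor, 111.7 kb to its right.

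The place of Fpr3 relative to this boundary depended on the annotation. GENCODE starts Fpr3 28 bases from the start of Fpr2, which puts it 17.1 kb left of the boundary and puts the boundary in an intron of Fpr3. RefSeq starts it 82606 bases further right, at 60.5 kb to the right of the boundary, on the side of Fpr-rs4. Fpr3 was the only receptor of the 76 whose 2 annotated starts differed by more than 10 kb. The boundary also covered an exon of the processed pseudogene Gm7531.

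Left of the boundary, the interval of 230 kb also held Vmn2r90, Spaca6 and Has1, the hyaluronan synthase gene next to Fpr1. Right of it, Fpr-rs4 shared 460 kb with the pseudogene Fpr-rs5 and 5 Vmn2r genes, of which Vmn2r124 was the nearest.

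Fpr-rs7, Fpr-rs6 and Fpr-rs3 (chr17:20113210-20624877, all on the minus strand) lay in 1 interval of 985 kb, the longest that held any receptor of these families and at the 96.8th percentile of the list. Fpr-rs7 lay 74.2 kb and Fpr-rs6 143.1 kb from a Weak boundary (score 0.311) in Vmn2r104, and Fpr-rs3 lay 400.1 kb from a Strong boundary (score 0.972) in Zfp160. Of the 19 other coding starts in the interval, 8 lay between the Fpr genes: Vmn2r105, Vmn2r106, Vmn2r107, Vmn1r224, Vmn2r108, Vmn1r225, Vmn2r109 and Vmn2r110. Vmn1r226 was the neighbour to the right. Between the 2 Fpr clusters, 2.09 Mb held 6 boundaries, all Weak (scores 0.243 to 0.389), and 15 coding genes, all of them vomeronasal receptors.

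**Figure D3:**
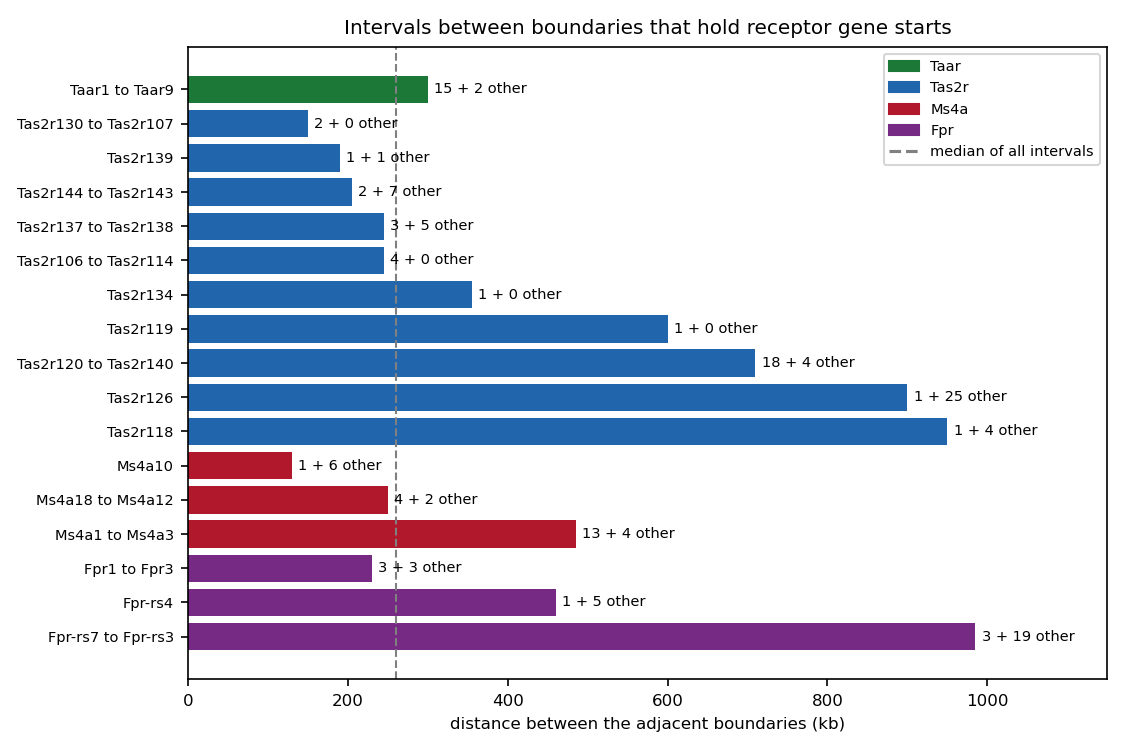
Length in kb of each of the 17 intervals between adjacent boundaries that hold the start of a receptor gene, coloured by family, with the number of receptor starts and of other coding starts beside each bar; the dashed line is the median of all intervals. The bars run from 130 kb (Ms4a10) to 985 kb (Fpr-rs7 to Fpr-rs3), and the line stands at 260 kb.

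Seen over the 8 clusters, 6 boundaries lay inside 2.40 Mb, 2.50 per Mb, against 2.91 per Mb for the whole list. The side of the background depended on the cluster rule: with gaps of at most 100 kb there were 3.31 per Mb and with at least 5 genes per cluster 3.08 per Mb, both above the list, and with gaps of at most 1 Mb 2.67. Clusters made by the same rule had 2.42 per Mb in Olfr, 1.32 in Vmn1r and 1.63 in Vmn2r genes. Of the 6, 4 were Strong, and their median score was 1.34, against 0.520 for the whole list. The same median was 0.393 for the 75 boundaries inside Olfr clusters, 0.349 for the 14 in Vmn1r and 0.297 for the 20 in Vmn2r clusters. With 6 boundaries, 2 of them Weak with scores of 0.280 and 0.216, this median describes few positions and was not tested.

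Of the 16 cluster ends, 3 had a boundary within 25 kb (18.8%): Taar9, Tas2r137 and Tas2r114. The background was 16.0% of 5 kb bins along the chromosomes, and the shares were 34.6% of 78 Olfr cluster ends, 45% of 20 Vmn1r ends and 15.4% of 26 Vmn2r ends. Here too the side depended on the cluster rule, with 3 of 12 ends (25%) for gaps of at most 100 kb and 2 of 14 (14.3%) for gaps of at most 1 Mb. At Tas2r114 the boundary was the Weak one inside the cluster. None of the 8 clusters had a boundary within 25 kb at both ends, against 4 of 39 Olfr, 2 of 10 Vmn1r and 0 of 13 Vmn2r clusters. The bodies of 4 of the 76 receptor genes, Tas2r135, Ms4a15, Ms4a1 and Fpr3, were overlapped by a boundary, against 15.5% of all protein-coding genes. Such overlap depends on gene length, which was not matched here. Fpr3 counts only by its GENCODE start, because its RefSeq start lies 60.5 kb right of the boundary.

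The 74 receptors that start outside a boundary lay in 17 intervals. Of these 17, 5 were longer than 500 kb, against 16.0% of all 7415 intervals. The 7415 were not limited to intervals that hold a gene start, and a longer interval is likelier to hold one. The median receptor lay in an interval of 472.5 kb, against 275 kb for the median protein-coding gene. The same median was 495 kb for Olfr, 640 kb for Vmn1r and 725 kb for Vmn2r genes. The median of the 17 intervals was 300 kb, against 260 kb over the list, with the same limit. The 3 intervals with the most receptors held 18 Tas2r, 15 Taar and 13 Ms4a genes.

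Adjacent receptors of a family lay on opposite sides of a boundary midpoint in 6 of 65 pairs (9.23%), against 23.1% of all adjacent protein-coding starts up to 500 kb apart. These shares are not like for like, because the pairs were not matched for the distance between starts. Per Mb of cluster, boundaries numbered 2.50, against 2.91 for the whole list. The 6 pairs were Tas2r139 and Tas2r144, Tas2r135 and Tas2r126, Tas2r107 and Tas2r106, Ms4a10 and Ms4a15, Ms4a12 and Ms4a1, and Fpr3 and Fpr-rs4. With the RefSeq start of Fpr3, the last pair becomes Fpr2 and Fpr3. Pairs on opposite sides had a median coding DNA identity of 54.1% (42.5 to 69.0%), against 56.4% (11.99 to 97.5%) for pairs on the same side. The starts of pairs on opposite sides were a median of 31.4 kb apart, against 18.7 kb. The low end, Ms4a5 and Ms4a14, joins coding sequences of unequal length.

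The 22 boundaries inside or next to the 8 clusters comprised 14 Strong ones (63.6%), against 51.8% of the list, and had a median score of 0.690, against 0.520. By annotation, 11 overlapped a protein-coding gene and 11 no annotated gene. The same split was not computed for all boundaries, so it describes these 22 only. An exact CTCF consensus match on either strand lay within 10 kb of 2 of the 22 (9.09%), against 23.1% of all boundaries. Those 2 are the boundaries beside Tas2r137 and left of Tas2r130 whose letters are given above. The nearest match lay 109.7 kb from the boundary with the start of Ms4a15 and 251.0 kb from that between Fpr3 and Fpr-rs4. Several others of the 22 were also over 100 kb from a match. They ranged from 101.0 kb, between Tas2r107 and Tas2r106, to 716.0 kb, right of Fpr-rs4. The share of all boundaries at such distances was not computed.

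The promoters of the receptors had few CpG pairs, as did those of the other tandem receptor families. RefSeq promoter windows (250 bases before to 50 after a start) were matched by symbol for 66 of the 76 genes. The ratio of observed to expected CpG pairs had a median of 0.124 in these 66, against 0.603 in 16307 protein-coding genes, and the GC content was 37.8%, against 57%. The median ratio was 0.106 in Olfr, 0.139 in Vmn1r and 0.0957 in Vmn2r genes. The ratio was above 0.6 in 0 of 66 receptors, against 50.2% of all. Of protein-coding starts with a ratio of at most 0.6, 9.69% lay within 10 kb of a boundary, and of those above 0.6, 15.5% did. Of the 66 receptors with a promoter sequence, 6 were within 10 kb (9.09%). The median distance was 91.0 kb for these 66, against 66.2 kb for protein-coding starts with a ratio of at most 0.6 and 49.9 kb for those above. The split by CpG ratio was chosen after seeing the data.

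Of 27 signalling partners, genes known to act in cells that carry chemoreceptors, 4 lay within 10 kb of a boundary (14.8%, interval 4.19 to 33.7%), against 12.5% of all protein-coding starts. Their median distance was 45.6 kb. Gng13, a G protein gamma subunit of olfactory and taste cells, started inside a Strong boundary (score 0.928). Pde2a, the phosphodiesterase of necklace neurons, lay at 1.69 kb (Strong, 0.754), Gnao1, the G protein alpha subunit of basal vomeronasal neurons, at 4.97 kb (Weak, 0.341), and Gnb3, a beta subunit of taste cells, at 5.28 kb (Strong, 0.977).

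Within 25 kb there were 6 of 27 partners (22.2%), against 24.8% of all protein-coding starts, so the partners fell above the background at 10 kb and below it at 25 kb. The 2 added by the wider window were the carbonic anhydrase gene Car2 at 16.3 kb (Strong, 0.747) and Gnal, the olfactory G protein alpha subunit, at 16.8 kb (Strong, 2.27). The farthest were Trpc2, the vomeronasal channel, at 171.9 kb, Gnat3, the taste cell alpha subunit gustducin, at 157.5 kb and Gnai2, of apical vomeronasal neurons, at 115.4 kb. By cell type, 1 of 11 olfactory, 1 of 8 taste, 1 of 4 necklace and 1 of 4 vomeronasal partners lay within 10 kb.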

How the data were processed

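The deposited list came from in situ Hi-C (DpnII) of 2 replicates in 1 group, grouped by the labels. The authors called boundaries, per the design text of the series, on a matrix of both replicates combined, on GRCm38, a build that the submitters' processing notes also name. For the caller, the score formula, the aligner and the filters no source used here gives a name. The class (Weak or Strong) and the score are the deposited values, used within this list only. The list carries no values per replicate, so no test between samples was possible. The cluster, window and interval counts are descriptions.

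The genes and lists were chosen with earlier results of these data known. Boundary coordinates were checked against chromosome lengths of GRCm38.p6, and none lay beyond them. Starts came from GENCODE M21, 1 per gene; 211 of 21755 protein-coding starts lay outside the first to last boundary and were left out. Clusters were runs of at least 3 genes of a family with gaps of at most 500 kb. A boundary was inside when its midpoint was. Word uniqueness used 50-base words sampled every 50 bases in the clusters and more sparsely across all chromosomes, where 254185 words were taken. The promoters that were printed were checked against the genome. The plan named protein identity; no protein sequences were used here, so coding DNA of adjacent genes was aligned globally instead.

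Named genes followed a rule: first and last gene of each cluster, genes outside clusters, those within 25 kb of a boundary, the 2 farthest per family, those flanking each inner boundary, neighbours of cluster ends, other coding genes inside, and signalling partners within 25 kb or among the 3 farthest. Other genes were chosen after their values were seen. The functions for distances, clusters, motif matches and words were checked on simulated positions and sequence. No reported count was compared with a simulated background. Python 3.11.15, numpy 2.4.6, scipy 1.17.1, Biopython 1.88 and matplotlib 3.10.9 were used. Alternatives covered windows, Strong boundaries only, other starts, gene bodies, pseudogenes, cluster rules and motif settings.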

Additional observations from a re-analysis of the deposited data

How the results depend on the processing

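Depth and replicate values are unknown, so the limits here are the choices of window and list. Of 114 alternative values for 22 results, 99 fell inside the counting interval or spread over genes of the main value, and 15 fell outside. These intervals treat genes that share a boundary as independent and are wide for small sets, so the tally does not measure robustness. Among the 99 was the Taar share of 26.7% within 50 kb, against 6.67% within 10 kb. A window of 25 kb gave 28.9% of the 76 receptors near a boundary, 31.4% of Tas2r, 26.3% of Ms4a and 42.9% of Fpr genes, against 24.8% of all protein-coding starts. A window of 50 kb gave 35.5% of all 76, 37.1% of Tas2r, 36.8% of Ms4a and 42.9% of Fpr genes, against 44.3% of all. A window of 5 kb left 0 of 15 Taar genes near, against 8.35% of all protein-coding starts. With Strong boundaries only, the median distance was 167.3 kb over all 76 receptors, against 101.7 kb for all protein-coding starts, and was 269.0 kb for Tas2r and 218.5 kb for Ms4a genes. Within 10 kb, 0 of 8 Tas2r cluster ends and 1 of all 16 ends were near a boundary, and no background was computed at that distance. CTCF consensus matches within 25 kb were at 36.4% of the 22 boundaries, against 38.1% of all, and with at most 1 mismatch at 86.4%, against 87.9%. RefSeq starts, an alternative chosen after seeing the data, left 6 of 76 receptors within 10 kb and, because of Fpr3, 2 of 7 Fpr genes within 25 kb. Taking the start of any transcript put 7 of 76 receptors (9.21%) within 10 kb, and 2 of 19 Ms4a genes. Taking any base of the gene body put 9 of 76 (11.8%) within 10 kb. For these 2 alternatives no share over all protein-coding genes was computed. No cluster of at least 5 genes exists for Fpr, so that value was not computed. Replicates could not be left out because the list is pooled. No paired analysis was possible because there is 1 group and the list pools both replicates.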
